A study of Mus musculus with 6 samples.

Results

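The mitochondrial ribosomal proteins are the nuclear-encoded proteins of the ribosome inside mitochondria. Here they are all genes whose name on the array begins with Mrpl or Mrps followed by a number. This rule found 76 genes on 100 probes, among 55681 non-control probes in all. By name, 47 genes belong to the large subunit (Mrpl) and 29 to the small subunit (Mrps). Genes were tested if 3 or more of the 6 arrays showed their probe well above background. This held for 75 of the 76 genes, all of them on all 6 arrays. Mrpl21, a large subunit protein with 1 probe, was well above background on 0 arrays and has no value below.

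The mitochondrial ribosome translates the few messages of the mitochondrial genome, which code for core subunits of the respiratory chain. Its RNA is made inside the mitochondrion, but its proteins are made in the cytosol and imported, so each of them begins as a nuclear transcript. Some have counterparts in bacterial ribosomes and others exist only in mitochondria. Myogenic differentiation is known to bring a rise in respiratory capacity, which needs this ribosome.

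RNA came from primary myoblasts, the precursors of muscle fibres, sorted by flow cytometry from skeletal muscle of male C57BL/6 mice aged 3 months and then cultured. One group of 3 arrays held cells treated for 4 days with TGFb, a secreted growth factor of the fibrotic response, and the other held 3 arrays of cells left untreated. All cells grew in medium with fetal bovine serum. No genotype other than the strain, no TGFb dose and no number of animals is given in the labels used here, which call the arrays biological replicates and the design independent experiments. Untreated replicates 1 and 2 carry the same number in their file names, so they may not come from separate cultures. A gene's level below is log2 of its processed intensity minus the log2 of that array's 75th percentile, so 0 is the 75th percentile of the array and a step of 1 is a doubling. Levels of different genes come from different probes and are not compared.

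Each array's 75th percentile of intensity was 879.2 to 1578.4, with 50.6% to 55.8% of its probes well above background. There were 2 scan days: TGFb replicate 1 with untreated replicates 1 and 2 on day 1, and TGFb replicates 2 and 3 with untreated replicate 3 on day 2. The first principal component, with 72.4% of the variance, separated those days. What else differed between the days, such as labelling or hybridisation, is not stated in the sources used. There was therefore a fit with group only and a second fit that also has a term for scan day, the day-adjusted fit. The main counts and medians of the members are given from both. Many single genes are given from the day-adjusted fit alone, and none of the members passed with group only. Pax7 and Myod1, which mark myogenic cells, were well above background on all arrays (levels 2.05 to 2.49 and 5.09 to 7.33), as were 9 of 12 myoblast markers; Chodl and Calcr were above background on 0 arrays and Myf5 on 1. The summed level of the myoblast markers was 8.65 to 9.46 on the TGFb arrays and 8.98 to 9.55 on the untreated ones. That sum covers opposite changes. Lower on all TGFb arrays were Des (4.06 to 4.58 against 5.33 to 5.66), Myog (7.21 to 7.56 against 7.68 to 7.86) and Cdh15 (4.78 to 5.32 against 5.4 to 5.74). Ncam1 was higher (6.31 to 7.64 against 5.17 to 6.09), and the remaining tested markers overlapped. In the day-adjusted fit the 9 tested markers had a median log2 fold change of -0.51, with 7 below 0. What these changes contribute to the results below was not tested.

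Of the markers of other cells, 5 of 8 for fibroblasts, 2 of 6 for endothelium, 3 of 8 for leukocytes and 2 of 5 for Schwann cells were well above background on all 6 arrays. Their summed levels on TGFb and untreated arrays were 2.47 to 3.25 and 1.81 to 2.81 for fibroblasts, -1.22 to 1.55 and -1.6 to 1.65 for endothelium, and 4.06 to 6.87 and 4.05 to 6.06 for leukocytes. The Schwann cell list, led by the myelin gene Mbp, was 0.99 to 1.7 on TGFb arrays and 0.32 to 0.64 on untreated ones, so the groups did not overlap. Lum, Tek, Emcn, Tie1, Cd68 and Lyz2 were among those above background on no array. The part of other cells in the results below was not tested. In cultures measured in bulk, fewer cells with a transcript and less of it per cell cannot be told apart.

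Promoters of these genes are known to carry sites for factors that drive nuclear genes of mitochondria, and 3 of them are shown. Mrpl12 is the member that passed in the day-adjusted fit. Mrps18a and Mrps27 were picked because they held several motifs, among members with an unadjusted limma p under 0.05 in that fit. Other members under that p, such as Mrpl28, Mrps2 and Mrpl47, held none of the motifs searched. RefSeq (build GRCm38.p6) gave promoters for 67 of the 76 genes. Each line is the 150 bases just upstream of the start site, on the plus strand, at chr11:120484487-120484636, chr13:99344636-99344785 and chr17:46110854-46111003. Capitals mark a match to the core of the NRF1 site (TGCGCA) or to the ETS site bound by GABP (CCGGAAG), read on both strands, so that CTTCCGG is the ETS site on the other strand.
Mrpl12: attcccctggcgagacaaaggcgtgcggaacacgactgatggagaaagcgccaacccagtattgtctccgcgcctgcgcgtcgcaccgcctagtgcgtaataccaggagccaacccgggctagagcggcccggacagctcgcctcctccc
Mrps27: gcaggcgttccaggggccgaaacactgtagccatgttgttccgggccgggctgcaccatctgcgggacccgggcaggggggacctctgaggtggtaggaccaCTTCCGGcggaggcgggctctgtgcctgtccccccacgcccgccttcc
Mrps18a: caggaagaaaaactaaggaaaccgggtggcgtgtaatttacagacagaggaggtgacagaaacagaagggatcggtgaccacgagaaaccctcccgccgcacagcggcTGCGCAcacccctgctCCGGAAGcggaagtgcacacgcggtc

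Mrps18a held both sites in this stretch, Mrps27 held the ETS site, and Mrpl12 held neither. Because Mrps18a and Mrps27 were picked for their motifs, these matches say nothing about the members as a set. Over the full 300 bases of each of the 73 member promoters (250 before the start to 50 after), the NRF1 core was present in 27.4%, against 7.76% of all 32851 promoters and 9.74% of those of coding genes. The ETS site was present in 32.9% (8.86% of all promoters and 11.6% of those of coding genes). The YY1 site AAGATGG was present in 17.8% (6.34% and 6.24%) and the E-box CACGTG, a MYC site, in 9.59% (7.15% and 7.84%). Any of the 4 was found in 64.4% of member promoters, in 25.6% of all and in 29.7% of those of coding genes. The 73 promoters belong to 67 genes, 3 of which have several. A match is a run of letters, not a measured site.

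After 4 days of TGFb, 0 of 75 mitochondrial ribosomal protein genes passed the threshold in either direction (limma, group only, adjusted p under 0.05 over 21960 genes). Among all genes 1.4% passed, 0.706% lower and 0.697% higher. At an unadjusted p under 0.05, 4 members were lower (Mrpl12, Mrpl28, Mrps2 and Mrps27) and 0 were higher, where 5.79% and 5.72% of all genes were lower and higher. The median log2 fold change of the members was -0.18, against 0.05 over all genes, 50 of 75 were below 0 (47.2% of all genes) and 21 below -0.5 (21.0%). Without untreated replicate 3 that median was 0.07, against 0.08 for all genes, with 33 of 75 below 0. The untreated arrays left were then all of day 1, so this value cannot separate that array from scan day.

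In the day-adjusted fit 1 member passed and was lower after TGFb, Mrpl12, and none was higher. There 10.2% of all genes passed, 5.61% lower and 4.6% higher, so 1 of 75 is below the background. Without reaching the adjusted threshold, the members were nonetheless placed mostly below 0: 65 of 75 had a log2 fold change below 0 (46.5% of all genes), 17 were below -0.5 (14.9%) and 0 were above 0.5 (19.3%). Their median was -0.30 (quartiles -0.49 and -0.12), against 0.04 over all genes and -0.03 over the 3339 genes with a mean level between the members' own quartiles. At an unadjusted p under 0.05, 16 members were lower (13.9% of all genes) and 0 were higher (13.3%). Values ran from -0.88 for Mrpl42 to 0.22 for Mrpl20, and the 95% confidence interval of a typical member reached 0.41 to either side. The members' median stayed below 0 and below the median of all genes under every scaling tried, between -0.488 and -0.228 after day adjustment and between -0.266 and -0.165 with group only. Its size differed between the days. Without untreated replicate 3 the day-adjusted fit compares the groups within day 1 only, and the median was -0.14 with 51 of 75 below 0. Without TGFb replicate 1 it compares them within day 2 only, and the median was -0.43 with 68 below 0.

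**Figure D1:**
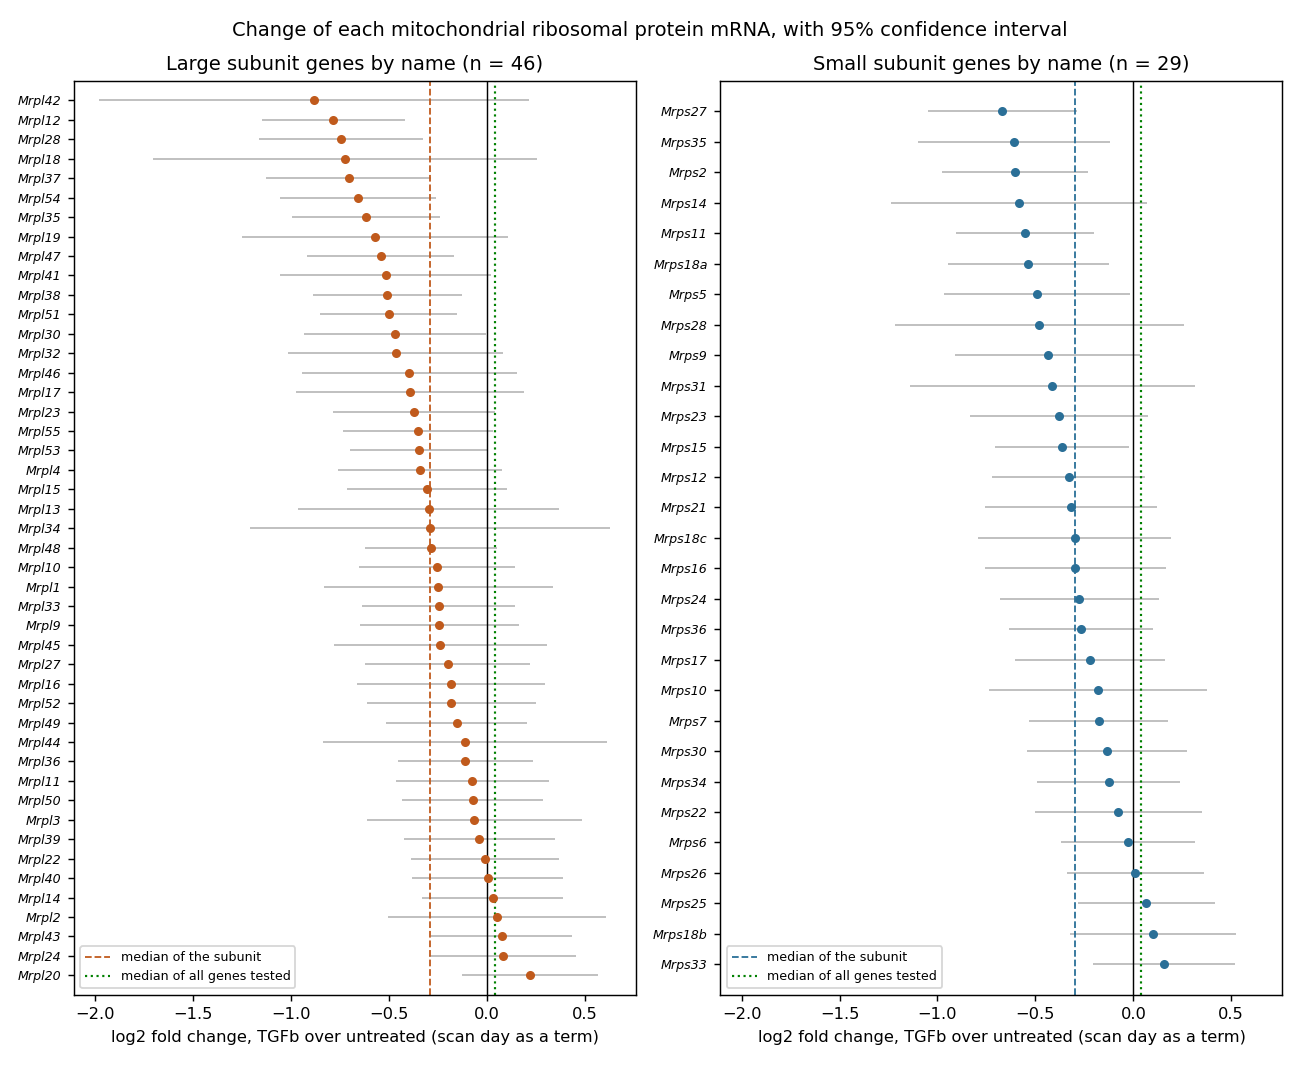
Log2 fold change of each tested gene, TGFb over untreated in the day-adjusted fit (horizontal axis), for the 46 large subunit genes at left and the 29 small subunit genes at right; grey bars are 95% confidence intervals from limma on 3 arrays per group. The subunit medians (dashed, -0.29 and -0.30) lie left of the median of all genes tested (dotted, 0.04), and no gene lies above 0.22.

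The members' shift within each scan day, the same quantity as in the fits just given, was set beside that of other genes. On day 1, with 1 TGFb and 2 untreated arrays, the median difference was -0.14 and 51 of 75 genes were below 0 (47.4% of all genes). On day 2, with 2 TGFb arrays and 1 untreated array, it was -0.43 and 68 of 75 were below 0 (48.5% of all genes). The all-gene medians were 0.03 and 0.02. The 3339 genes of like level had medians of 0.07 and -0.14, with 1401 below 0 on day 1 and 2087 on day 2. Both days were below 0 for 50 of 75 members, 66.7%, against 31.9% of all genes and 36.6% of genes of like level, and both were above 0 for 6 (35.9% of all genes). On the slides that held 1 array of each group, the medians were -0.14 (slide 1) and -0.46 (slide 2).

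**Figure D2:**
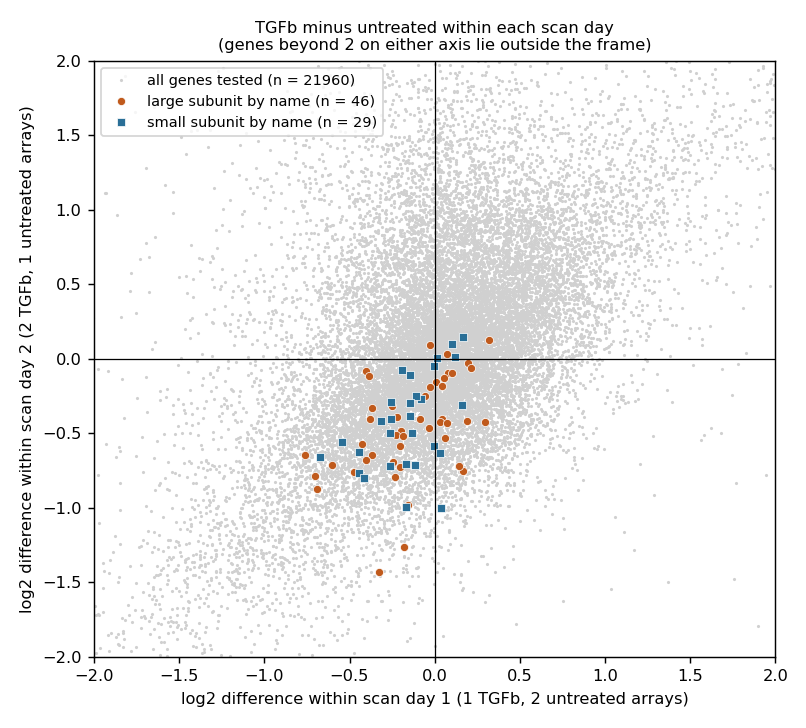
Log2 difference between TGFb and untreated arrays within scan day 1 (horizontal axis) and within scan day 2 (vertical axis) for the large subunit genes (circles), the small subunit genes (squares) and all 21960 genes tested (grey). Members crowd into the lower left, where 50 of 75 lie, and their spread is wider along day 2, whose single untreated array every day 2 value shares.

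The members were high on 1 array. Averaged over the 75 members and centred on each gene's mean of 6 arrays, untreated replicate 3 stood at 0.39, the other untreated arrays at -0.03 and -0.05, and TGFb replicates 1 to 3 at -0.19, -0.08 and -0.04. So untreated replicate 3 was the high array, and the untreated arrays of day 1 lay close to the TGFb arrays of day 2. All genes tested averaged -0.02 on untreated replicate 3. The members' untreated difference between days (day 2 minus day 1) had a median of 0.53 and ran from -1.19 to 1.69, and 20 members differed by over 1 in size; the median was 0.17 over all genes, 0.64 over genes of like level and 0.53 over cytosolic ribosomal proteins. In those 20 members the difference between days exceeded every member's log2 fold change after TGFb, which reached -0.89 with group only.

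**Figure D3:**
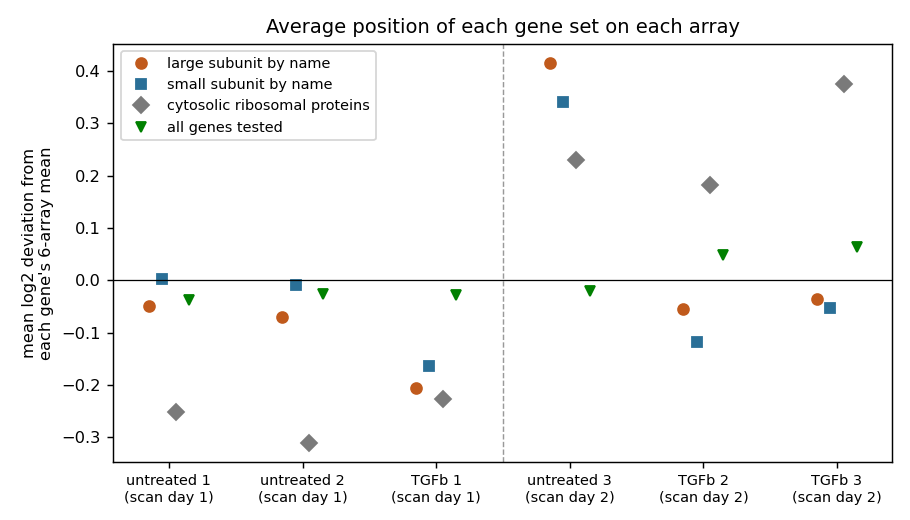
Mean log2 deviation from each gene's own 6-array mean (vertical axis) on each array, ordered by scan day, for the large and small subunit genes, 77 cytosolic ribosomal protein genes and all genes tested. Both subunits sit highest on untreated replicate 3 (0.42 and 0.34) and lowest on TGFb replicate 1 (-0.21 and -0.16), and they stay close to each other on every array; the cytosolic set is low on all day 1 arrays and high on all day 2 arrays.

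Large and small subunit genes had similar medians. The median log2 fold change was -0.15 for 46 large and -0.18 for 29 small subunit genes in the fit with group only, and -0.29 and -0.30 in the day-adjusted fit. Within day 1 the medians were -0.17 and -0.14, and within day 2 they were -0.43 and -0.42. In the day-adjusted fit 40 of 46 large and 25 of 29 small subunit genes were below 0, and 9 and 7 reached an unadjusted p under 0.05, all lower. The large subunit mean minus the small subunit mean was -0.04, 0.06 and 0.02 on TGFb replicates 1 to 3 and -0.05, -0.06 and 0.07 on untreated replicates 1 to 3. These differences overlapped between the groups, and their sign followed scan day: negative on all day 1 arrays and positive on all day 2 arrays.

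Names do not always give the position in the ribosome. Mrps18a and Mrps30 are named for the small subunit but sit in the large one, and Mrps36 is now known as a subunit of the 2-oxoglutarate dehydrogenase complex. Their log2 fold changes in the day-adjusted fit were -0.54 ± 0.16 (SE, n = 3 per group), -0.13 ± 0.16 and -0.27 ± 0.15. With Mrps18a and Mrps30 moved and Mrps36 left out, the subunit medians were -0.29 (48 genes) and -0.31 (26 genes). The 46 genes classed here as having a bacterial counterpart had a median of -0.30, and the 28 classed as mitochondria-specific had -0.26. Mrpl47 was counted in the second set, although it is related to a bacterial protein, and Mrps36 in neither.

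Mrpl12, the member that passed in the day-adjusted fit, forms the flexible stalk of the large subunit that recruits translation factors, and it is also known to bind the mitochondrial RNA polymerase. Its levels were 4.46, 4.18 and 4.32 on TGFb replicates 1 to 3 and 5.21, 5.1 and 5.13 on untreated replicates 1 to 3. Every TGFb array was below every untreated array, on both days. With group only the log2 fold change was -0.82 ± 0.24 (limma adjusted p = 0.233). In the day-adjusted fit Mrpl12 fell by 0.78 ± 0.14 on the log2 scale (95% confidence interval -1.15 to -0.42; adjusted p = 0.0313), which is a change of -41.9%, and the difference was -0.69 on day 1 and -0.88 on day 2. The call was kept without TGFb replicate 3 (adjusted p = 0.0331) and was lost on leaving out each other array, with adjusted p of 0.103 without TGFb replicate 1, 0.0552 without TGFb replicate 2, and 0.155, 0.14 and 0.21 without untreated replicates 1, 2 and 3. It was also lost with untreated replicates 1 and 2 averaged into 1 sample (0.145). The probe lies at chr11:120349740-120349799 in the array's own annotation (build mm9), at base 620 of the transcript.

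The stalk of Mrpl12 is held by Mrpl10, next to which Mrpl11 sits. Mrpl10 had levels of 2.32, 1.28 and 1.53 on TGFb arrays and 2.70, 2.71 and 1.52 on untreated arrays, and a log2 fold change of -0.25 ± 0.16 in the day-adjusted fit (adjusted p = 0.366). Mrpl11 had 4.49, 4.72 and 5.0 against 4.49, 4.48 and 5.01, and -0.07 ± 0.15 (adjusted p = 0.802). In both genes the day 2 arrays stood apart from the day 1 arrays and the groups overlapped.

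The members that came next, just short of the threshold, are named after their values were seen. Mrpl28, a large subunit protein with a bacterial counterpart, had levels of 2.25, 2.06 and 2.44 after TGFb and 2.98, 2.93 and 3.03 untreated. Its groups did not overlap, and its log2 fold change was -0.73 ± 0.25 with group only and -0.74 ± 0.17 in the day-adjusted fit (adjusted p = 0.314 and 0.0522). Mrps27, a pentatricopeptide repeat protein of the small subunit, had 0.44, -0.08 and 0.20 after TGFb and 1.15, 1.09 and 0.72 untreated. All TGFb arrays were again lower, with a log2 fold change of -0.67 ± 0.15 in the day-adjusted fit (adjusted p = 0.0533). Mrps2, a small subunit protein with a bacterial counterpart, had 1.61, 1.39 and 1.36 against 2.02, 2.09 and 2.14 and a log2 fold change of -0.60 ± 0.15 (adjusted p = 0.066). A dimmer Mrps2 probe at base 587 had -1.32, -1.62 and -1.16 against -0.51, -0.77 and -1.49, so there the groups overlapped. Its day-adjusted value was -0.29 ± 0.26, with -0.68 within day 1 and 0.10 within day 2. Untreated day 2 minus day 1 was 0.08 for Mrpl28, -0.40 for Mrps27 and 0.08 for Mrps2.

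Mrpl37 and Mrpl54, proteins found only in mitochondrial ribosomes, and Mrpl35, which has a bacterial counterpart, followed with log2 fold changes of -0.70 ± 0.17, -0.66 ± 0.16 and -0.62 ± 0.15 in the day-adjusted fit (adjusted p of 0.0609, 0.063 and 0.0639). Mrpl37 levels were 0.92, 2.19 and 2.29 after TGFb and 1.86, 1.49 and 2.89 untreated. Those groups overlapped, and the gene was higher on day 2 by 1.21 in untreated and 1.32 in treated cells, and within the days its differences were -0.76 and -0.65. In all, TGFb arrays lay below all untreated arrays in 13 of 75 members, against 9.51% of all genes, and above them in 0, against 8.45%. The 13 were Mrpl12, Mrpl28, Mrpl41, Mrpl42, Mrpl47, Mrpl48, Mrpl53, Mrpl54, Mrps2, Mrps15, Mrps27, Mrps31 and Mrps35.

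The 5 lowest log2 fold changes with group only were those of Mrps9 (-0.89), Mrpl38 (-0.84), Mrps28 (-0.83), Mrpl12 (-0.82) and Mrpl42 (-0.82). Mrps9, a small subunit protein with a bacterial counterpart, had levels of 2.16, 0.66 and 0.41 after TGFb and 2.31, 2.35 and 1.24 untreated. It was low on all day 2 arrays, and in the day-adjusted fit its value was -0.44 ± 0.19 (adjusted p = 0.211). Mrpl38, a mitochondria-specific protein of the central protuberance, had 2.36, 1.22 and 1.21 against 2.64, 2.82 and 1.86, and -0.51 ± 0.15 in the day-adjusted fit (adjusted p = 0.103). Mrps28, a small subunit protein, had 3.00, 1.68 and 1.18 against 2.99, 2.93 and 2.43; its difference was 0.04 within day 1 and -1.0 within day 2. Mrpl42, a mitochondria-specific large subunit protein, had 2.24, 2.52 and 1.25 against 2.52, 2.62 and 3.32, with groups that only just did not overlap. It had the lowest value in the day-adjusted fit (-0.88) and a wide error (SE 0.43, adjusted p = 0.263).

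The 5 highest were Mrpl24 (0.47), Mrpl40 (0.34), Mrps18b (0.33), Mrps33 (0.32) and Mrpl20 (0.30), each with an adjusted p of 0.73 or more. Mrpl20, a large subunit protein with a bacterial counterpart, had levels of 5.05, 5.15 and 5.22 after TGFb and 4.72, 4.74 and 5.05 untreated. Its value in the day-adjusted fit was 0.22 ± 0.14 (adjusted p = 0.358), and its groups overlapped by 1 untreated array, replicate 3. Mrpl24, whose bacterial counterpart sits at the exit of the peptide tunnel, had 4.38, 5.34 and 5.54 against 4.18, 4.20 and 5.47. Its log2 fold change in the day-adjusted fit was 0.08 ± 0.15, and the high arrays were those of day 2 in both groups. After day adjustment the values were 0.01 for Mrpl40, 0.16 for Mrps33 and 0.10 for Mrps18b.

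**Figure D4:**
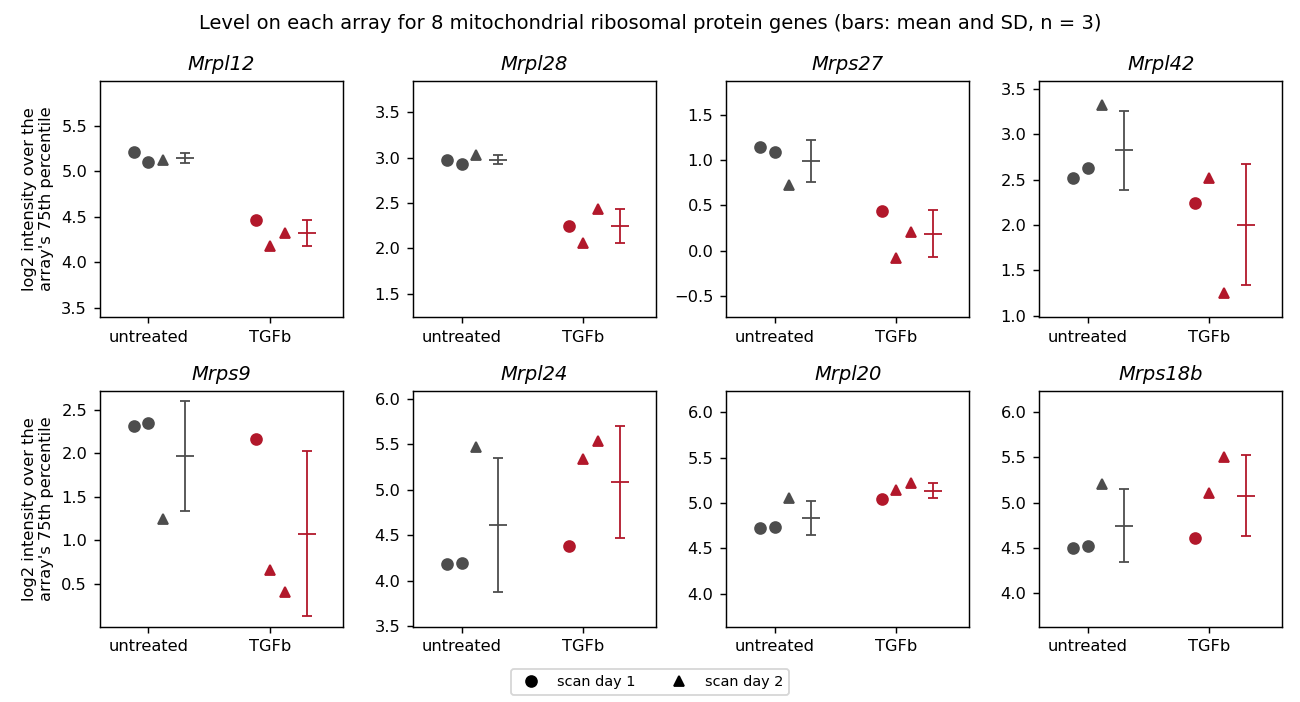
Level on each array (log2 intensity over the array's 75th percentile, vertical axis) for 8 members, untreated in grey and TGFb in red; circles are arrays of scan day 1, triangles of scan day 2, and the bars show the mean and SD of 3 arrays. In Mrpl12, Mrpl28, Mrps27 and (only just) Mrpl42 the groups do not overlap, while in Mrps9, Mrpl24 and Mrps18b the triangles stand apart from the circles in both groups.

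Members with known places in the ribosome can be set side by side in the day-adjusted fit. Near the peptidyl transferase centre, Mrpl2, Mrpl3 and Mrpl27 had log2 fold changes of 0.05, -0.06 and -0.20. At the peptide exit, Mrpl22, Mrpl23 and Mrpl24 had -0.01, -0.37 and 0.08, and Mrpl45, which ties the ribosome to the inner membrane, had -0.24. In the central protuberance, Mrpl18, Mrpl38, Mrpl40, Mrpl46 and Mrpl48 had -0.72, -0.51, 0.01, -0.39 and -0.28. At the decoding site of the small subunit, Mrps12 had -0.33. None of these passed the threshold.

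Several members were read by more than 1 probe, and probes of one gene did not always give the same value. In 19 genes with probes at least 50 bases apart on one transcript, the probe nearer the 5′ end had the lower log2 fold change in 17 in the day-adjusted fit (89.5%), against 53.5% of 3305 such pairs among all genes. With group only it was 15 of 19 (78.9%, against 61.8%), and within the days 15 and 14 of 19 (67.4% and 44.0% of all pairs). The medians of the 5′ and 3′ probes were -0.37 and -0.20, and both probes were below 0 in 13 of 19. The 5′ probe had the lower signal in 14 of 19 (2249 of the 3305 pairs). Untreated day 2 minus day 1 had a median of -0.08 for the 5′ and 0.56 for the 3′ probes (-0.20 and 0.43 over all pairs). What probe position and brightness contribute to the members' values was not tested.

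Mrps18b and Mrpl22 are examples, and the start of each of their probes is printed because the letters identify which stretch of transcript each value belongs to (first 30 bases, in lower case throughout; the number is the base of the transcript where the probe is annotated).
Mrps18b 260: acagcggacccgaaagacatgtattcgtaa
Mrps18b 992: ggtgtgtccctgatttaaacctcctggctc
Mrpl22 386: caagacatggcagtgagagaccataatgtg
Mrpl22 663: ggtcatcctggctccacggtgtatatagct

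For Mrps18b, a small subunit protein, the probe at base 260 had levels of 0.63, 1.02 and 1.38 after TGFb and 1.31, 1.19 and 1.70 untreated, and a log2 fold change of -0.56 ± 0.17 in the day-adjusted fit. The probe at base 992 had 4.62, 5.11 and 5.51 against 4.5, 4.53 and 5.21, and 0.10 ± 0.17. Within each day the first was lower after TGFb (-0.62 and -0.50) and the second was not (0.10 and 0.10). For Mrpl22, a tunnel protein, the probe at base 386 had 2.23, 2.27 and 1.95 against 2.49, 2.53 and 2.82, and -0.50 ± 0.19, with all TGFb arrays below all untreated ones. Its probe at base 663 had -0.01 ± 0.16. None of these 4 probes passed the threshold.

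With group only, probes of a gene differed in sign by over 0.5 in Mrps18b, Mrpl22, Mrpl27, Mrpl41, Mrpl43, Mrpl50, Mrps26 and Mrps36. For Mrpl41, a mitochondria-specific protein, the probe at base 657 had -0.64 and the probe at base 2318 had 0.15. For Mrpl43 the probes at bases 541 and 681 had -0.46 and 0.16, for Mrpl27 those at 360 and 648 had -0.60 and 0.25, and for Mrpl50 those at 423 and 1910 had -0.41 and 0.20. For Mrps26 and Mrps36 the 5′ probes had -0.22 and -0.83 and the 3′ probes 0.29 and 0.16. In each of the 8 genes the 5′ probe was the lower one. When all 99 tested probes were treated as separate features, 86 were below 0 in the day-adjusted fit and 2 passed, 1 of Mrpl12 and 1 of Mrpl30. The Mrpl30 probe that passed was the dimmer one (-0.82 ± 0.17, limma adjusted p = 0.0498). The brighter Mrpl30 probe, which stood for the gene, did not pass (-0.47 ± 0.19, adjusted p = 0.202).

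**Figure D5:**
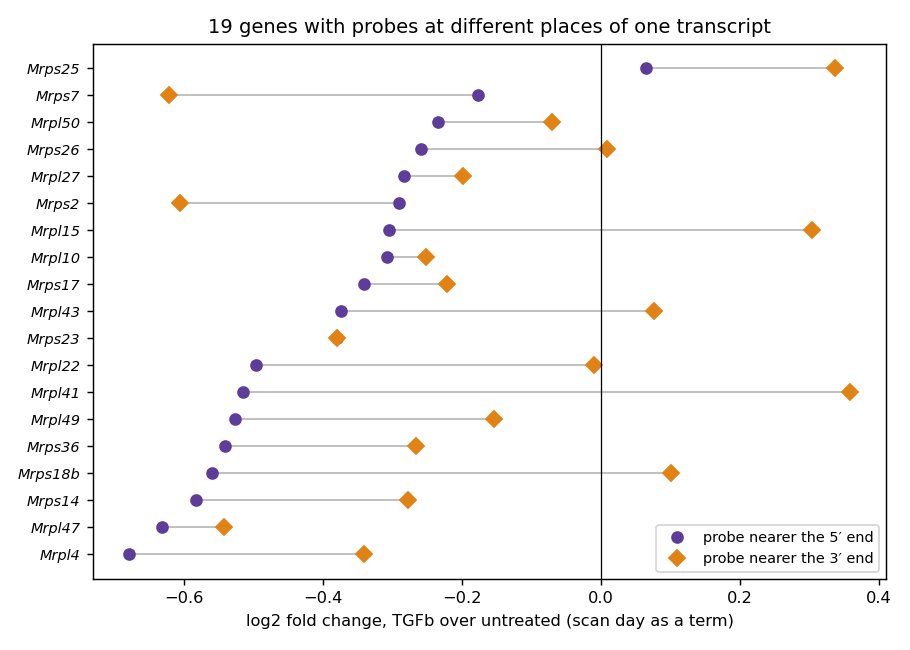
Log2 fold change in the day-adjusted fit (horizontal axis) for the probe nearer the 5′ end (circles) and the probe nearer the 3′ end (diamonds) of 19 member genes, ordered by the 5′ value. The circle lies left of the diamond in 17 genes; Mrps2 and Mrps7 are the exceptions.

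Genes that act with the mitochondrial ribosome gave 0 calls in every list with group only, and the counts that follow are in the day-adjusted fit, in which 10.2% of all genes passed. Among 9 other proteins of the ribosome or bound to it, 0 passed and 7 were below 0 (median -0.07). Ptcd3, a small subunit protein, had -0.55 ± 0.26, Oxa1l, which inserts new chains into the inner membrane, had -0.27 ± 0.14, and Aurkaip1, a small subunit protein, had 0.19 ± 0.14. Among 29 assembly and ribosomal RNA modification genes, 1 rose, 0 fell and 22 were below 0 (median -0.27). The one that rose was Mrm1, a methyltransferase of the large ribosomal RNA, with levels of 1.80, 2.63 and 2.67 after TGFb and 1.29, 1.2 and 1.89 untreated (0.66 ± 0.14, adjusted p = 0.0463). The call was kept without TGFb replicate 3 (0.0453) and lost without any other single array (0.0766 to 0.262). Ybey, an endoribonuclease, had -0.58 ± 0.18 (adjusted p = 0.121). Fastkd2, which binds the large ribosomal RNA, was well above background on all untreated arrays and on no TGFb array (measured means -4.98 and -5.58). A bound from group means put the untreated level 1.31-fold higher, but it takes no account of the spread between arrays. Untreated replicate 2 (-5.43) lay close to TGFb replicates 2 and 3 (-5.46 and -5.45). Fastkd2 passed in neither fit (limma adjusted p = 0.0808 day-adjusted, 0.564 with group only), so no minimum fold is shown.

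Translation factors and tRNA charging followed. Of 15 translation factors, 1 fell and 0 rose, and 13 were below 0 (median -0.29). Mrrf, the factor that takes the ribosome apart after a round of translation, had levels of -1.22, -1.65 and -2.01 after TGFb and -0.05, -0.21 and -0.15 untreated. Every TGFb array was below every untreated one, and Mrrf fell by 1.39 ± 0.21 on the log2 scale (adjusted p = 0.018; 0.0934 with group only). The call was kept without TGFb replicate 2 or 3 (0.0471 and 0.0184), and lost without TGFb replicate 1 (0.0569) or without untreated replicate 1, 2 or 3 (0.0845, 0.0685 and 0.148). Gfm2, its partner GTPase, and Taco1, an activator of cytochrome oxidase translation, had -0.52 ± 0.14 each (adjusted p = 0.0835 and 0.0775).

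Of 22 mitochondrial tRNA charging enzymes, 2 fell and 0 rose, and 19 were below 0 (median -0.42). Cars2, which charges the cysteine tRNA, had -0.06, -0.43 and -0.77 after TGFb and 0.64, 0.67 and 0.60 untreated; it fell by 0.95 ± 0.19 (adjusted p = 0.0391). Gatb, a subunit of the complex that makes glutaminyl-tRNA, had 0.06, -0.78 and -0.87 against 0.67, 0.67 and -0.18 and fell by 0.63 ± 0.13 (adjusted p = 0.0459). Its groups overlapped across days and not within them. Both calls were kept without TGFb replicate 3 (0.0312 for Cars2, 0.0416 for Gatb) and lost without any other single array (0.0712 to 0.252 and 0.0639 to 0.227). Qrsl1, another subunit of that complex, had -0.69 ± 0.16 (adjusted p = 0.0532).

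Of 18 genes for maintenance and transcription of mitochondrial DNA, 0 passed with either fit (median -0.10). At an unadjusted p under 0.05, 2 were lower and 1 higher. Tfam, which packs and transcribes that DNA, had levels of 3.17, 3.42 and 3.46 after TGFb and 3.07, 3.17 and 4.03 untreated (-0.27 ± 0.19), and Polrmt, the polymerase, had -0.35 ± 0.24. Mterf1a, a termination factor, had 0.57 ± 0.15 (adjusted p = 0.0758), with every TGFb array above every untreated one, and Twnk, the helicase, had -0.74 ± 0.29. Mterf2 was well above background on 2 of 3 TGFb arrays and on all untreated ones, so no fold is given.

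Of 11 tested regulators of mitochondrial biogenesis, 2 fell and 0 rose (median -0.05). Ppargc1a, the PGC-1α coactivator, had levels of -0.85, 0.28 and 0.54 after TGFb and -0.10, 0.23 and 1.17 untreated. Ppargc1b, its relative, had -0.94, -2.25 and -2.06 against -0.42, -0.19 and -1.15. The groups overlapped in both genes, but within each day the difference was below 0, at -0.92 and -0.76 in Ppargc1a and at -0.64 and -1.0 in Ppargc1b. They fell by 0.84 ± 0.17 and 0.82 ± 0.17 (adjusted p = 0.0442 and 0.0449). Without TGFb replicate 3 the call of Ppargc1a was kept (0.0341) and that of Ppargc1b was lost (0.0506), and without any other single array both were lost (0.0837 to 0.202 and 0.0759 to 0.278). Esrra, the nuclear receptor they activate, had -0.61 ± 0.18 (adjusted p = 0.0968) and all its TGFb arrays were lower. Myc had 0.48 ± 0.20 (adjusted p = 0.2), with all TGFb arrays higher, and Nrf1 had -0.07 ± 0.25.

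The 77 cytosolic ribosomal proteins, which build the other ribosome of the cell, were placed differently in these arrays. In limma 0 passed in either fit, 0 had an unadjusted p under 0.05, and their median log2 fold change was 0.26 with group only and 0.09 in the day-adjusted fit. After day adjustment 23 of 77 were below 0, where 65 of 75 mitochondrial ribosomal proteins were. The cytosolic direction turned with the scaling: with median scaling and day adjustment, where the median of all genes was -0.151, the cytosolic median was -0.098 with 69 of 77 below 0, and after quantile normalization with group only it was -0.003. Both days were below 0 in 13 of 77 (16.9%). Rps4l and Rpl22l1 had the smallest p (0.52 ± 0.20 and 0.35 ± 0.15; adjusted p = 0.184 and 0.222), and Rpl21 had -0.44 ± 0.20. Many cytosolic ribosomal protein genes have near-identical copies elsewhere in the genome, so their probes can read more than 1 gene. The difference between the sets was not tested.

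Members with and without each promoter motif were described in the day-adjusted fit. The median log2 fold change was -0.24 for 19 genes with the NRF1 core and -0.29 for 47 without, and -0.29 for 23 genes with the ETS site and -0.25 for 43 without. It was -0.46 for 13 genes with the YY1 site and -0.25 for 53 without, and -0.11 for 5 genes with the E-box and -0.28 for 61 without. These differences between medians were not tested. Mrpl12, whose upstream stretch is printed above, held no motif there.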

How the data were processed

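Agilent 1-colour arrays (Cy3), 3 per group, were analysed from the scanner files. Per the file headers, the deposited intensity values were made with Agilent Feature Extraction, which gives a processed, background-subtracted signal for each spot. The authors also deposited a table of normalized log2 values for the same arrays. Its medians were 6.99 to 7.00, each column correlated with its own array (r 0.992 to 0.993 across probes), and how it was normalized is not stated in these sources, so it served as an alternative.

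Control spots and spots called outliers (176 to 365 per array) were left out. The log2 processed intensity minus the array's 75th percentile was averaged over the spots of a probe. The probe that was brightest on average stood for its gene, which gave 21960 tested genes, and p-values of limma 3.58.1 (R 4.3.3; lmFit, eBayes) were adjusted over all of them by Benjamini-Hochberg (threshold 0.05). The main fit had group as the only term, and scan day as a term was the first alternative. P-values measure the spread between these arrays. Names were updated through RefSeq for 26300 of 55681 probes (2839 changed), including 97 of the 100 member probes (0 changed). Alternatives were slide or replicate number as a block, other scalings and background correction, other filters, all probes, and leaving out each array. Fits were tested on simulated data.

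The members, lists, and tests were chosen with earlier results of these data known. The text names members past the threshold, the 5 highest and 5 lowest with group only, those whose probes disagreed, Mrps18a, Mrps30 and Mrps36, the 3 smallest p of each list, and Tfam, Polrmt, Ppargc1a, Myc and Nrf1; others were named after their values were seen. No pairing by replicate number is stated in the labels. Deviations of TGFb and untreated arrays with the same number correlated at 0.808, -0.716 and 0.691. The signs followed scan day, also across numbers (0.862 for TGFb replicate 1 with untreated replicate 2). These values therefore cannot show whether arrays of the same number were paired.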

Additional observations from a re-analysis of the deposited data

How the results depend on the processing

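With 3 arrays per group and 2 scan days, the confidence interval of a typical member reached 0.86 to either side with group only. With scan day as a term it reached 0.41. These intervals take no account of the number of genes tested, so larger changes could also miss the adjusted threshold. Mrpl28, at -0.74 with scan day, did so (limma adjusted p = 0.0522). Values of dim probes rest on signals near background and are less certain. The alternatives that join scan day with another choice, and the averaging of untreated replicates 1 and 2, were chosen after the data were seen. The cause of the changes below was not tested.

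With group only, 308 genes, 0 members and 0 genes of the lists passed. Genes past the threshold numbered 2242 with scan day as a term, 776 with slide as a block, 105 with median scaling, 3285 in the authors' deposited table, 0 with untreated replicates 1 and 2 averaged (650 with scan day as well), and, with scan day, 2620 after quantile normalization, 3367 in the deposited table, 1845 with median scaling and 2536 with normexp background. With probes as separate features and scan day, 2536 passed. Members past the threshold numbered 1 with scan day, 8 in the deposited table, and 2 with probes and scan day. With scan day they also numbered 5 after quantile normalization, 11 in the deposited table and 8 with normexp. All were lower after TGFb. In each of these fits on genes, the share of the 75 members that passed was below the share of all 21960 genes. Genes of the lists numbered 6, 8, 8, 7, 14 and 8 under the same alternatives in that order, and 4 with median scaling and scan day. Leaving out 1 array at a time, with and without scan day, gave 0 to 3343 genes, 0 to 4 members and 0 to 9 genes of the lists; with group only it gave 195 genes without untreated replicate 3, 57 without TGFb replicate 1, 2 without TGFb replicate 3, and 0 without any of the others.

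With the replicate number as a block, 2 genes and 0 members passed, and Mrpl12 had an adjusted p of 0.343. Whether the numbers pair the arrays is not known. With scan day, the adjusted p of Mrpl12 was 0.0232 after quantile normalization, 0.0151 with normexp, 0.00899 in the deposited table and 0.0654 with median scaling; over all its alternatives its log2 fold change stayed between -0.976 and -0.657.

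Untreated replicate 3 and TGFb replicate 1 were each the only array of their group on their scan day. Leaving either out therefore also removes the comparison within that day. The members' median ranged from -0.426 (scan day, without TGFb replicate 1) to 0.071 (group only, without untreated replicate 3) when 1 array was left out. The large subunit's ranged from -0.43 to 0.102 and the small subunit's from -0.416 to 0.051. With median scaling and scan day, where the median of all genes moved to -0.151, these were -0.488, -0.479 and -0.492, and with untreated replicates 1 and 2 averaged and scan day the small subunit had -0.341. The large minus small difference ranged from -0.048 to 0.051 without 1 array and was -0.057 over probes.

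Several log2 fold changes that passed no threshold changed sign. With scan day they were -0.009 for Mrpl22, -0.198 for Mrpl27, -0.07 for Mrpl50, -0.266 for Mrps36, -0.438 for Rpl21 and -0.075 for Nrf1. With slide as a block they were -0.061, -0.157, -0.03, -0.301, -0.522 and -0.279 for the same genes, and -0.006 for Mrps18b, -0.039 for Mrpl40 and -0.019 for Mrps26. In the deposited table they were -0.108 for Mrpl27, -0.043 for Mrpl50, -0.169 for Mrps36 and -0.327 for Rpl21. Mrps30 had 0.008 with normexp, Mrpl43 -0.002 and Aurkaip1 -0.123 after quantile normalization, and Aurkaip1 -0.019 and Rpl21 -0.004 with median scaling. Without 1 array, Mrpl27 ranged from -0.038 to 0.779, Mrps36 from -0.074 to 0.633, Mrps30 from -0.168 to 0.137, Rpl21 from -0.316 to 0.569, Nrf1 from -0.013 to 0.92, Aurkaip1 from -0.099 to 0.155 and Tfam from -0.251 to 0.233.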
